A study of Mus musculus with 2 samples.

Results

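Cholesterol and fatty acid synthesis was followed through 32 genes, a list of enzymes and regulators of both routes drawn up by name, with earlier results of these data known. All 32 were found among the 25791 gene symbols of the files, and 31 of them averaged 1 FPKM or more (a count of sequenced fragments corrected for the length of the transcript and the size of the library). Of the 32 genes 18 belong to the sterol path, 6 sense or carry sterols, and 8 make or desaturate fatty acids. RNA came from fetal thymus at 15 days post coitum, from cells sorted as positive for EpCAM and negative for CD45 and PDGFRa, which is the gate used for thymic epithelial cells. The library titled B6J came from C57BL/6 mice, and the library titled humanCD3eTg from mice of the strain C57BL/6J x CBA/J. The title of the latter names a human CD3e transgene, and mice with many copies of it are generally known to lack T cells. The treatment labels state the reverse, with thymocytes present in humanCD3eTg and absent in B6J, so groups are named here by title. The labels do not say how many fetuses were pooled, and the strains differ in genetic background as well as in the transgene.

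There was 1 library per group. No test was therefore possible, the variation among mice is unknown, and every ratio below describes these 2 libraries. Ratios are humanCD3eTg over B6J, and log2 ratios are taken on FPKM + 1, which understates the difference of genes of low level. In these bulk samples, fewer cells of a type and less RNA per cell cannot be told apart.

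Cells build cholesterol from acetyl-CoA through mevalonate, isoprenoids, squalene and lanosterol, and build fatty acids from the same acetyl-CoA by way of malonyl-CoA. Both routes are known to be driven by the SREBP transcription factors, which are held in the endoplasmic reticulum by SCAP and INSIG proteins while sterols are plentiful and are released when sterols fall. In epithelia these lipids serve membranes, the cornified barrier and lipid-modified signals, and the demand of dividing cells for membrane is met in part by this synthesis.

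The promoters of these genes are known for binding sites of SREBP together with its partners NF-Y and Sp1, and 5 of them are shown here because they belong to genes on which the values below turn. Lss and Cyp51 are the sterol path enzymes with the lowest ratios for which a promoter was matched, Srebf2 is the sterol regulator with the lowest ratio, Ebp is an enzyme that stood higher, and Hmgcs1 is listed at 0. Each is the 250 bases before the transcription start, on the strand of the gene, from RefSeq on build GRCm38.p6. For Lss and Hmgcs1 the 50 bases after this start were not found near the beginning of any GENCODE M21 transcript of the gene. Capitals mark matches, on either strand, to the SRE (TCACNCCAC), the E-box-like SRE (TCACNTGA), the NF-Y box (CCAAT), the Sp1 box (GGGCGG) and the E-box (CACGTG). The E-box overlaps the E-box-like SRE where its N is G, and the other motifs hold no copy of each other.
Lss, chr10:76531355-76531604, plus strand: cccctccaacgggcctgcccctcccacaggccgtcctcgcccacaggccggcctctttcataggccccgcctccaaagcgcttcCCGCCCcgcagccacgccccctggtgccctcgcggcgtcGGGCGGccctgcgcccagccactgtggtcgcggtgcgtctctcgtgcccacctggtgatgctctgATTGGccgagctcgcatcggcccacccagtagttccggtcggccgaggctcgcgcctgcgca
Cyp51, chr5:4104698-4104947, minus strand: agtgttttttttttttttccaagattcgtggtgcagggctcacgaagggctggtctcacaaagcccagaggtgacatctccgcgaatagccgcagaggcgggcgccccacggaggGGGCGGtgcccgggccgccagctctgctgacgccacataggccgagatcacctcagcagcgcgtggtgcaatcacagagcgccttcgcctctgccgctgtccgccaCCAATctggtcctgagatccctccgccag
Srebf2, chr15:82147019-82147268, plus strand: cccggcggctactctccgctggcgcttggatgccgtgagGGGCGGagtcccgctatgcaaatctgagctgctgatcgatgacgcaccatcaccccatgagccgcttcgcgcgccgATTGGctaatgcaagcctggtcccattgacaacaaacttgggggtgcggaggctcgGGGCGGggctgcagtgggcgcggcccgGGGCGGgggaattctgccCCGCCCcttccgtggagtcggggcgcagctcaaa
Ebp, chrX:8193513-8193762, minus strand: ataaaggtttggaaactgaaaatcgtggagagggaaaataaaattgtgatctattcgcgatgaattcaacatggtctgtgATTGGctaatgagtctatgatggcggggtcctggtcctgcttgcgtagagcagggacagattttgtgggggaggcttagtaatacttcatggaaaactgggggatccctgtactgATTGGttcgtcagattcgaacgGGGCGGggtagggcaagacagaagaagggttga
Hmgcs1, chr13:119690101-119690350, plus strand: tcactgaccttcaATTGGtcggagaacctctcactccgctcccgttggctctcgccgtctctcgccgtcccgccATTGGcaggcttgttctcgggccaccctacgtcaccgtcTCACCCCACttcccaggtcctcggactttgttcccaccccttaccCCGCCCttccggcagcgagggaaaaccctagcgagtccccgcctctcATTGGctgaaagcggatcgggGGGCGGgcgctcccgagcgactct

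A promoter was matched for 25 of the 32 genes, and those of Fdps, Fdft1, Sqle, Stard4, Scd1, Scd2 and Fads1 were not. The NF-Y box was found in 19 of the 25 genes (76%), beside 40.7% of the 8562 genes used below that have a promoter in the table and 33.8% of all 32851 promoters. It was held by 14 of 15 sterol path genes and 4 of 5 sensing genes, but by 1 of 5 fatty acid genes, Fasn, or 2 of 5, with Acly, when the 50 bases after the start are added. The Sp1 box was found in 21 of 25 genes (84%), beside 65.8% of genes used and 32.7% of all promoters. The E-box was found in 5 genes (20%), beside 9.97% and 6.02%. The SRE in this strict spelling was found in Hmgcs1 only, 1 of 25 (4%), beside 1.28% of genes used and 1.05% of all promoters. The E-box-like SRE was found in Insig2 only (4%), beside 3.92% and 3.45%. Ebp, whose level stood higher in humanCD3eTg, and Lss, whose level stood lower, both hold an NF-Y box and an Sp1 box. A match describes these letters and is not a measured site, and genes with several starts were counted if any start held the motif.

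The 31 measured genes stood mostly lower in humanCD3eTg, each by less than 2-fold on FPKM + 1. The log2 ratio was below 0 for 28 of 31, beside 55.4% of the 13493 genes that averaged 1 FPKM or more (genes used), and for 18 of 31 when ratios were centred on thymic epithelial markers, beside 22.8% of genes used after the same centring. The median log2 ratio was -0.40, beside -0.05 over all genes used. At least 1.5-fold lower were 7 of 31, beside 10.9% of genes used. None was at least 2-fold lower (4.47% of genes used), at least 1.5-fold higher (5.95%) or at least 2-fold higher (2.1%). Centring on the epithelial markers moves the median of all genes used by 0.33, to 0.29, and the synthesis genes then have a median of -0.07, with none at least 1.5-fold lower (5.14% of genes used). Their median lay 0.36 below that of all genes used both as deposited and after this centring, which shifts all genes alike.

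**Figure D1:**
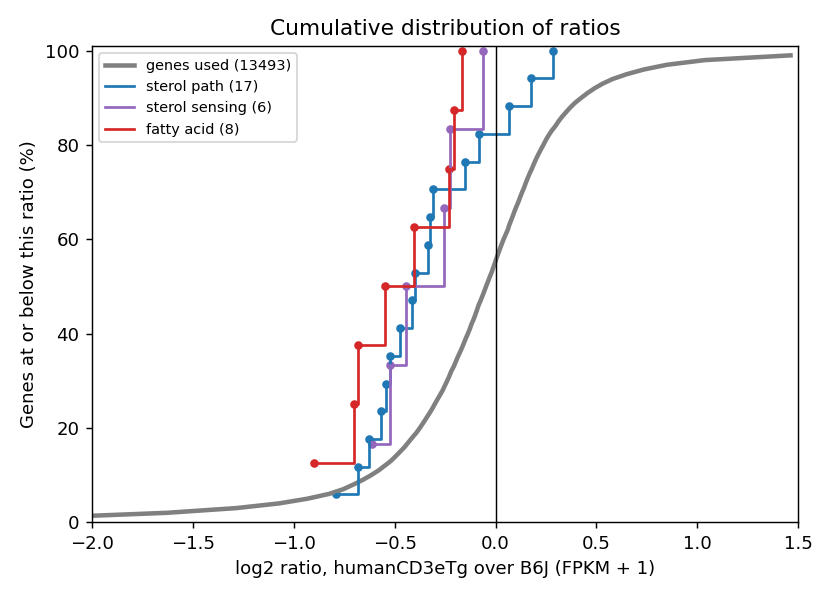
Cumulative share (percent of genes, vertical axis) of log2 ratios of humanCD3eTg over B6J on FPKM + 1 (horizontal axis) for the 13493 genes used (grey), 17 sterol path genes (blue), 6 sterol sensing genes (purple) and 8 fatty acid genes (red). The coloured steps lie left of the grey curve over most of their length, and 3 sterol path genes lie above 0 as deposited. The left tail of the grey curve reaches lower than any synthesis gene.

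The early sterol path makes mevalonate and turns it into isoprenoid units. Acat2, the cytosolic thiolase that joins acetyl-CoA units, stood at 20.8 FPKM in B6J and 25.5 FPKM in humanCD3eTg, a log2 ratio of 0.29, the highest of the 31 genes. This value is uncertain, because 45.9% of the 50-base windows of its longest transcript occur in the neighbouring copy Acat3 (5.09 and 6.49 FPKM). On the opposite strand 13.2% occur in Tcp1, which is far more abundant (142.1 and 163.4 FPKM) and also higher in humanCD3eTg. How much of the listed Acat2 level and ratio comes from Tcp1 reads was not tested. Hmgcs1, which makes HMG-CoA, is listed at 0 in both libraries, which can be a failed estimate, so no level is given for this step. Mvk, mevalonate kinase, stood at 16.6 and 11.3 FPKM (log2 ratio -0.52). The kinase that follows did not share this difference, since Pmvk, phosphomevalonate kinase, stood at 20.3 and 19.1 FPKM (-0.08). Mvd, the decarboxylase that yields isopentenyl diphosphate, stood at 10.7 and 7.74 FPKM (-0.42). Idi1, the isomerase of that product, stood at 31.5 and 28.2 FPKM (-0.15). Fdps, which condenses the units to farnesyl diphosphate and thus supplies both sterols and protein prenylation, had the highest level of the path, at 79.2 and 49.0 FPKM (-0.68). Of the 6 measured genes of this stretch 5 were lower, beside 55.4% of genes used, and the median was -0.28. With ratios centred on the epithelial markers Pmvk (0.25) and Idi1 (0.18) turn to the higher side. Fdps and Idi1 also share sequence with copies, with up to 77.3% and 21.3% of 50-base windows found in another transcript of the same strand, so reads may have been split among them.

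Squalene and lanosterol are made in the committed part of the path. Its 3 genes were all lower (median -0.55), also under each of the scaling alternatives. Of genes used 55.4% were lower as deposited. Fdft1, squalene synthase, stood at 18.6 and 13.9 FPKM (-0.40). Part of its transcript overlaps Ctsb on the opposite strand (19.9% of windows), whose level was similar in both libraries at 25.02 and 23.6 FPKM. Sqle, squalene epoxidase, a known control point of the path, stood at 39.1 and 26.5 FPKM (-0.55). Lss, lanosterol synthase, stood at 13.1 FPKM (approximate 95% Poisson interval 12.4 to 13.9) and 7.16 FPKM (6.55 to 7.82), or 1.83-fold lower in humanCD3eTg. Its log2 ratio of -0.79 was the lowest of the sterol path, and 6.51% of genes used had a lower ratio.

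The late steps strip methyl groups from lanosterol and move its double bonds until cholesterol is reached. Of the 8 genes measured there 6 were lower (median -0.33), beside 55.4% of genes used. Cyp51, the lanosterol demethylase, stood at 28.1 and 17.8 FPKM (-0.63). Tm7sf2, a reductase that follows it, stood at 5.05 and 5.34 FPKM (0.07), with overlapping intervals for counting error of 4.22 to 6.0 and 4.38 to 6.45. Lbr, outside these 8 genes and given below, also has sterol reductase activity and was lower, at 21.7 and 14.6 FPKM (-0.54). The demethylation complex was lower as deposited in each of its parts. Sc4mol, the methylsterol oxidase, stood at 30.5 and 20.2 FPKM (-0.57). Nsdhl, the dehydrogenase, stood at 9.20 and 7.23 FPKM (-0.31), and turns to 0.02 with ratios centred on the epithelial markers. Hsd17b7, the ketoreductase, stood at 3.84 and 2.86 FPKM (-0.32), which becomes 0.01 after the same centring. Together with Ebp it had the lowest levels of the path. Ebp, the sterol isomerase, was higher in humanCD3eTg at 3.80 and 4.43 FPKM (0.18), with intervals of 3.14 to 4.56 and 3.63 to 5.36 that overlap. Sc5d, the sterol desaturase, stood at 31.5 and 24.8 FPKM (-0.34). Dhcr7, the reductase that ends the branch through dehydrocholesterol, stood at 7.55 and 5.17 FPKM (-0.47).

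Over the whole sterol path 14 of 17 measured genes were lower as deposited (55.4% of genes used), and 10 with ratios centred on the epithelial markers (22.8%). At least 1.5-fold lower were Fdps, Lss and Cyp51, 3 of 17 beside 10.9% of genes used, and the path median was -0.40. Summed over its genes the path held 369.3 FPKM in B6J and 276.3 FPKM in humanCD3eTg, 0.748 of the former. Levels within the path spanned a wide range in both libraries: Fdps stood 20.8-fold above Ebp in B6J and 11.1-fold above it in humanCD3eTg. The most abundant steps were thus spread over the path (Fdps, Sqle, Sc5d, Idi1 and Sc4mol in B6J) rather than lying at 1 end of it.

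**Figure D2:**
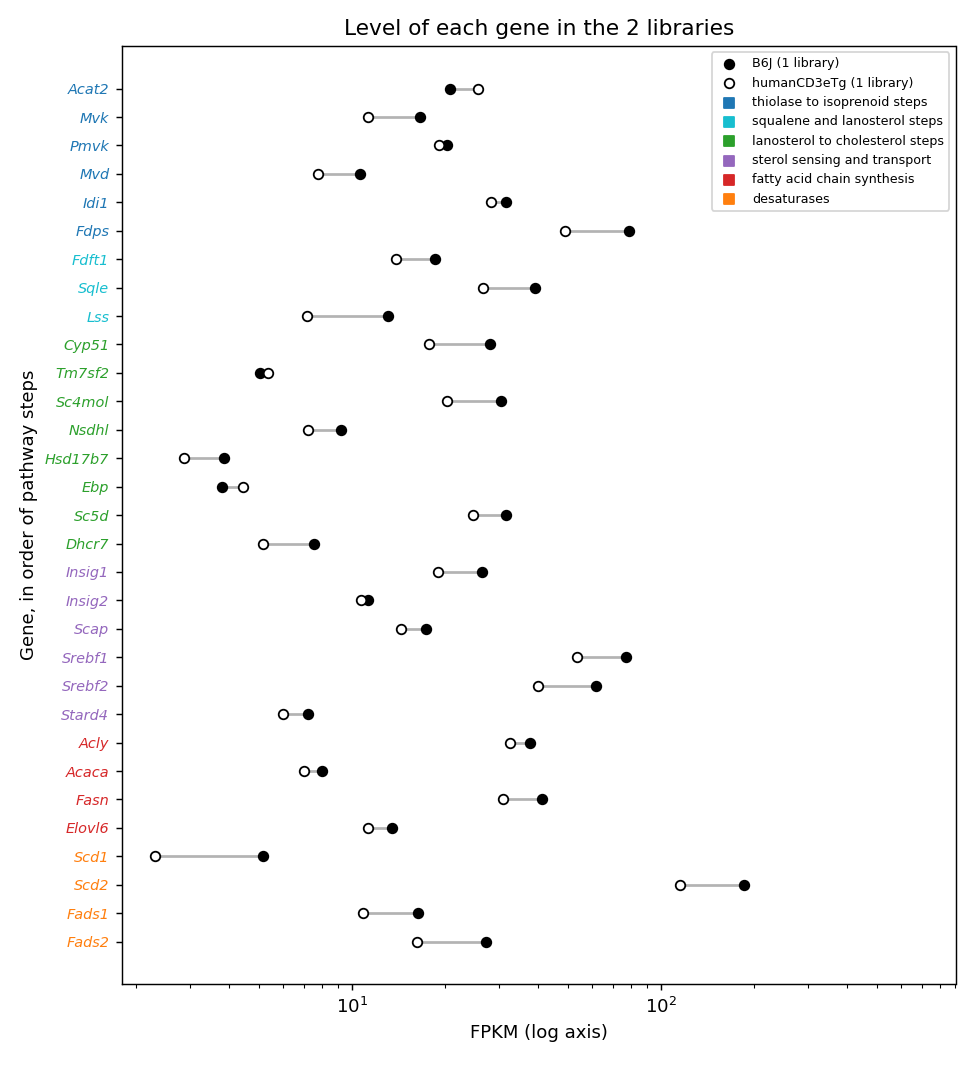
FPKM (horizontal log axis) of the 31 measured genes, in order of the steps, in the B6J library (filled) and the humanCD3eTg library (open), with 1 library each and names coloured by group. Open symbols lie left of filled ones for 28 genes, while Acat2, Tm7sf2 and Ebp lie to the right. Hmgcs1, listed at 0 in both, is not drawn.

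The genes that sense and carry sterols were all lower as deposited, 6 of 6 beside 55.4% of genes used, with a median of -0.35. This was 5 of 6 after quantile normalization (47.2% of genes used) and 3 of 6 with ratios centred on the epithelial markers (22.8%). Srebf2, which encodes the SREBP known to act chiefly on cholesterol genes, stood at 61.7 and 40.0 FPKM (-0.61). It was the 1 gene of this group at least 1.5-fold lower (10.9% of genes used). Srebf1, which encodes the SREBP forms known to act on fatty acid and sterol genes, stood at 77.4 and 53.5 FPKM (-0.53). Both were thus among the more abundant genes of the set, with 90.8% and 88.8% of genes used at a lower level than Srebf1 and Srebf2 in B6J. Scap, the escort that carries SREBP to the Golgi, stood at 17.4 and 14.4 FPKM (-0.25), and 13.1% of its windows lie in a transcript on the opposite strand.

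The anchors of the SREBP complex differed from each other. Insig1, itself a known SREBP target, stood at 26.3 and 19.0 FPKM (-0.44). Insig2, known to be controlled in other ways, stood at 11.3 and 10.7 FPKM (-0.06). Insig1 was therefore 2.34-fold above Insig2 in B6J and 1.77-fold above it in humanCD3eTg. The direction of Insig2 turns after quantile normalization and with ratios centred on the epithelial markers. Stard4, a carrier that moves cholesterol between membranes, stood at 7.18 and 5.99 FPKM (-0.23). Scap and Stard4 also turn with that centring, to 0.08 and 0.11.

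Genes that build the fatty acid chain were lower by small amounts, 4 of 4 (55.4% of genes used) with a median of -0.22. None was lower by 1.5-fold (10.9%). Acly, which supplies acetyl-CoA from citrate, stood at 37.7 and 32.6 FPKM (-0.21). Acaca, the carboxylase that makes malonyl-CoA, stood at 7.98 and 6.99 FPKM (-0.17), with 52.6% of its windows found in a copy, Gm5182. Fasn, the fatty acid synthase, stood at 41.1 and 30.9 FPKM (-0.40). Elovl6, which elongates palmitate, stood at 13.5 and 11.3 FPKM (-0.23). With ratios centred on the epithelial markers Fasn alone of these 4 stays below 0, at -0.07.

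The desaturases, which place double bonds in the finished chains, showed larger differences than the chain builders. All 4 were lower, also under each scaling alternative, with a median of -0.69 (55.4% of genes used were lower as deposited). Scd2, the stearoyl-CoA desaturase form common in mouse tissues outside the liver, was the most abundant gene of the whole set, at 186.0 and 115.7 FPKM (-0.68). Scd1, the form best known from liver, fat and sebaceous glands, stood far below it at 5.17 FPKM (4.71 to 5.65) and 2.31 FPKM (1.97 to 2.69). It had the lowest log2 ratio of the set, -0.90, or 2.24-fold lower in FPKM itself, and 5.25% of genes used had a lower ratio. Scd2 stood 36.0-fold above Scd1 in B6J and 50.1-fold above it in humanCD3eTg. At most 3.49% of the windows of either are shared with another Scd gene. The level and ratio of Scd1 are still uncertain, because 3.03% of its windows occur in the far more abundant Scd2. How much of the listed Scd1 level comes from Scd2 reads was not tested. The polyunsaturated fatty acid desaturase Fads1 stood at 16.3 and 10.8 FPKM (-0.55). Its partner Fads2 stood at 27.2 and 16.3 FPKM (-0.70). Scd1, Scd2 and Fads2 were at least 1.5-fold lower on FPKM + 1 (10.9% of genes used). Fads1 lay just under this limit there, while its FPKM values differ 1.51-fold.

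Over the 8 fatty acid genes the median was -0.48 and the sum 334.9 FPKM in B6J and 226.8 FPKM in humanCD3eTg. Scd2 alone held 186.0 and 115.7 FPKM of these sums. All 8 were lower as deposited (55.4% of genes used), and 5 with ratios centred on the epithelial markers (22.8%). That the desaturases differ more than the chain builders is a description of 4 and 4 genes and was not tested.

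**Figure D3:**
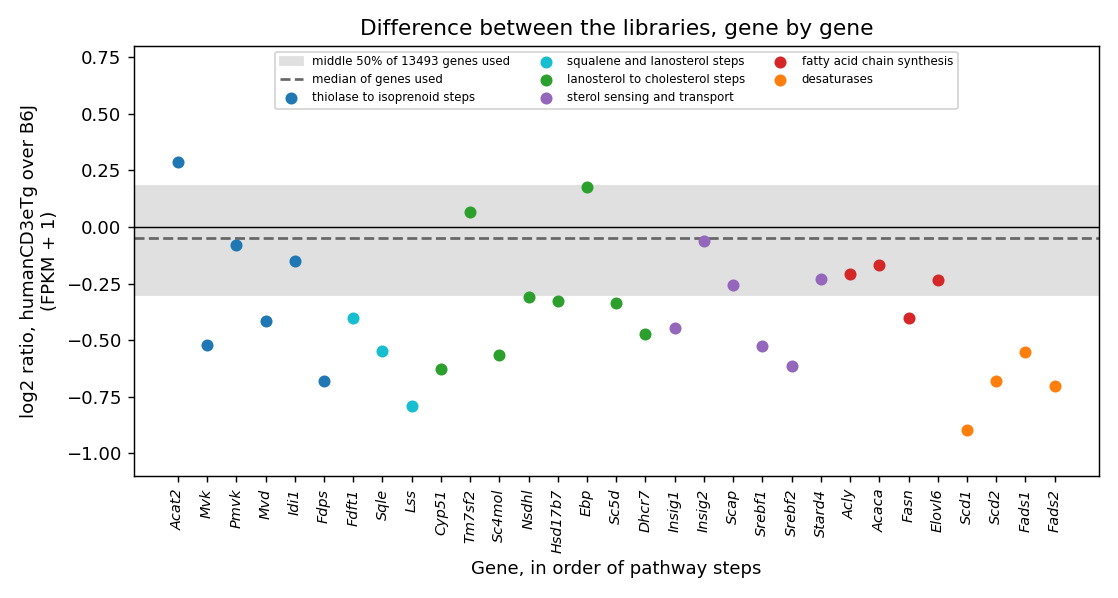
Log2 ratio of humanCD3eTg over B6J on FPKM + 1 (vertical axis) for the 31 measured genes in order of the steps (horizontal axis, coloured by group), with the middle 50% of the 13493 genes used as a grey band from -0.30 to 0.18 and their median as a dashed line. Of the 31 genes 20 lie at or below the lower edge of the band and Acat2 lies above its upper edge. Values are as deposited, and with ratios centred on the epithelial markers 10 genes cross from below to above 0.

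Most lists of genes around these routes had medians near that of all genes used (-0.05). The rest of sterol synthesis had a median of -0.04 over 9 genes. Of these 5 were lower and 3 at least 1.5-fold lower, beside 55.4% and 10.9% of genes used. Lbr, the lamin B receptor, which has sterol reductase activity, stood at 21.7 and 14.6 FPKM (-0.54) and Fdxr, which passes electrons to mitochondrial cytochromes, at 11.4 and 7.21 FPKM (-0.60). The branches that use isoprenoids for prenylation, dolichol and ubiquinone had a median of 0.11 over 11 genes. Pdss2, of ubiquinone synthesis, stood at 4.93 and 2.45 FPKM (-0.78), and Dolk and Dpagt1, of the dolichol route to glycoproteins, had 5.40 and 2.99 FPKM (-0.68) and 11.7 and 7.42 FPKM (-0.60). Pggt1b, a prenyltransferase subunit, stood at 5.25 and 6.87 FPKM (0.33). Of genes for SREBP processing and sterol-regulated degradation, 9 of 11 were lower (55.4% of genes used) and none by 1.5-fold (10.9%). Their median was -0.07. Mbtps1, the first protease to cut SREBP, stood at 31.7 and 22.6 FPKM (-0.47), and Rnf145, a ubiquitin ligase gene, at 23.5 and 16.5 FPKM (-0.49).

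Uptake and efflux genes were mixed. The list of cholesterol uptake and lysosomal transport had a median of -0.07 over 11 genes, with 7 lower (55.4% of genes used) and 4 higher. At least 1.5-fold lower was 1 of them and at least 1.5-fold higher another 1, beside 10.9% and 5.95% of genes used. The higher one was Scarb1, which encodes the HDL receptor, at 22.2 and 49.9985 FPKM (1.13), opposite to most synthesis genes. LXR and efflux genes had a median of -0.23 over 8 genes, and of 0.10 with ratios centred on the epithelial markers. Nr1h2, the widely expressed LXR, stood at 42.0 and 26.4 FPKM (-0.65), Mylip, an LXR target that degrades lipoprotein receptors, at 23.9 and 17.8 FPKM (-0.41), and Abcg1, a sterol exporter, at 1.83 and 0.606 FPKM (-0.82). Apoc1, an apolipoprotein gene, stood higher at 14.5 and 26.2 FPKM (0.82). Sterol ester and oxysterol genes had a median of -0.06 over 6 genes, with Cyp7b1, an oxysterol hydroxylase, at 5.80 and 3.12 FPKM (-0.72) and Ch25h, which makes an oxysterol, at 18.2 and 23.1 FPKM (0.32).

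The remaining fatty acid lists also lay nearer to all genes than the synthesis genes, apart from lipid droplets. Other genes of fatty acid synthesis and elongation had a median of -0.12 over 17 genes, and of 0.21 with ratios centred on the epithelial markers. Fads3, a relative of Fads1 and Fads2, stood at 1.01 and 4.34 FPKM (1.41), opposite to both, while Scd3 stood at 3.86 and 2.07 FPKM (-0.66), the same side as its relatives. Ptplb and Ptpla, dehydratases of very long chain synthesis, were higher, Ptplb with 4.13 and 8.83 FPKM (0.94) and Ptpla with 9.15 and 13.7 FPKM (0.53). Activation and glycerolipid genes had a median of -0.17 over 13 genes, and of 0.17 after that centring, with Gpam, an acyltransferase of triglyceride synthesis, at 4.34 and 2.0 FPKM (-0.83) and Acsl1, an acyl-CoA synthetase gene, at 8.19 and 13.1 FPKM (0.62). Fatty acid oxidation had a median of -0.05 over 14 genes, with 7 lower (55.4% of genes used) and 7 higher as deposited. Cpt1a, its entry step, stood at 39.1 and 25.2 FPKM (-0.62). The list of lipid droplets and fatty acid binding had a median of -0.56 over 7 genes, with Fabp4, known from fat cells, macrophages and endothelium, at 33.1 and 3.31 FPKM (-2.98), Cd36 at 2.498 and 0.661 FPKM (-1.07) and Plin2 at 10.7 and 6.37 FPKM (-0.67).

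**Figure D4:**
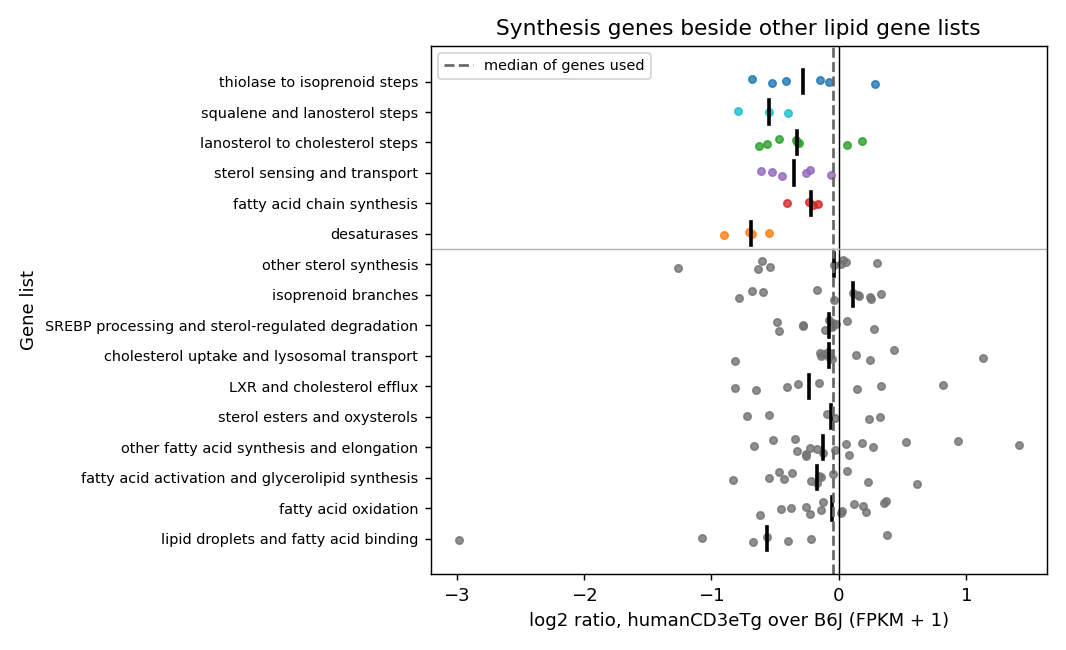
Log2 ratios of humanCD3eTg over B6J on FPKM + 1 (horizontal axis) of single genes (points) and their medians (black bars) for the 6 groups of synthesis genes above the line and 10 other lipid lists below it, with the median of genes used as a dashed line. The medians of the synthesis groups run from -0.69 to -0.22, and those of the other lists from -0.56 to 0.11, as deposited. Centring on the epithelial markers would move every point by 0.33 to the right.

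Markers of other cells also differed between the libraries, in both directions, and their part in the differences above was not tested. Beside the counts below, 55.4% of genes used were lower. Thymic epithelial markers were abundant in both libraries (18 of 18 used, summed 9066 and 9125 FPKM) with a median log2 ratio of -0.33. They went both ways, 13 lower and 5 higher, with log2 ratios from -1.25 to 1.77, so the centring used above rests on genes that differ widely. Epcam stood at 173.5 and 231.4 FPKM and Foxn1, the regulator of thymic epithelium, at 91.1 and 43.7 FPKM. Thymocyte markers summed to 196.8 and 12.2 FPKM, with 12 of 12 used genes lower. Cd8a was listed at 0 in B6J, and Cd3g, Cd3d, Rag2, Cd4 and Themis were listed at 0 in humanCD3eTg. Pan-haematopoietic markers summed to 232.2 and 82.6 FPKM (15 of 15 lower) and endothelial markers to 70.7 and 20.5 FPKM (11 of 11 lower). Pigment and neural crest markers went the other way, at 30.8 and 189.7 FPKM, with 10 of 11 higher. The genes of that list at 0 included Mlana and Tyrp1 in B6J and Tyrp1 and S100b in humanCD3eTg. Macrophage and dendritic markers summed to 31.2 and 26.2 FPKM, although 4 of 7 were higher (median 0.33). Mesenchymal markers summed to 238.2 and 269.1 FPKM, although 8 of 11 were lower (median -0.18). Erythroid markers summed to 2611 and 1586 FPKM, with 4 of 5 lower (median -0.72). Of the adipocyte markers Fabp4 accounted for nearly all of 33.1 and 3.41 FPKM, and the defining marker Adipoq was listed at 0 in B6J and at 0.0614 FPKM in humanCD3eTg.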

How the data were processed

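The libraries were made with the Illumina TruSeq RNA kit from TRIzol extracts of sorted cells, per the labels' protocols. The authors deposited 1 FPKM value per gene symbol and library. Per the submitters' processing notes the tools were TopHat2 2.0.8, Bowtie2 2.1.0 and Cufflinks 2.1.1 and the build mm9, with no roles stated. The sources used here state neither the annotation nor any use of strand, so reads of a gene and of its antisense partner cannot be told apart.

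Genes were matched by symbol (Sc4mol is now named Msmo1). Log2 ratios were computed with Python 3.11.15 on FPKM + 1 over genes averaging 1 FPKM or more, and folds of 1.5 and 2 were counted on that scale. No test was run, since there was 1 library per group. A value of at most 0.001 FPKM is called listed at 0. The summaries were tested on simulated data. The members and lists were chosen with earlier results of these data known. All members are named. Of each other lipid list up to 4 genes with the largest absolute log2 ratio are named, and of each marker list up to 3 of the highest level, beside sort and label checks and near copies chosen after their values were seen. Not every gene this rule picks is reported here.

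Depth is not given by FPKM. It was estimated from the spacing of low values, whose smallest unit is 1 fragment. With GENCODE M21 transcript lengths less 210 bases and a search from 0.04 to 0.09, a range taken from earlier work on these data, 1 fragment over 1 kb was worth 0.0503 FPKM in B6J and 0.0639 in humanCD3eTg, or about 19900000 and 15600000 fragments. Low genes were whole multiples of it to within 0.1 fragment in 58.7% and 59.8% of cases, beside 20% for an arbitrary step. The step was chosen as the one with the highest such share in the search, so 20% is too low a comparison. The estimate is rough and counts were not tested. Members then rest on about 116 to 19393 fragments in B6J and 106 to 9493 in humanCD3eTg, taking the longest coding transcript. Intervals are 95% Poisson intervals on these numbers and cover counting error only. Shared sequence was counted as 50-base windows found in transcripts of another gene, listed from 2% upwards. It was found for 9 members on the same strand and for 7 on the opposite one. These transcripts are of build GRCm38, and no coordinate of the files was used.

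Other settings tried were median centring, upper-quartile scaling, centring on 18 thymic epithelial markers, quantile normalization, equal totals leaving out haemoglobin, mitochondrial and ribosomal protein genes, pseudocounts of 0.1 and 5, a filter at 5 FPKM or none, other folds, leaving out genes listed at 0, and a longer promoter window.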

Additional observations from a re-analysis of the deposited data

How the results depend on the processing

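No paired analysis was possible because each group has 1 library. Values with no spread were taken as moved when a median shifted by more than 0.1 or a count by more than 1.5 times. Centring on thymic epithelial markers moved most: lower were then 3 of 6 sensing, 5 of 8 fatty acid and 18 of 31 genes in all (22.8% of genes used). The medians were then -0.067 (sterol path), -0.015 (sensing), -0.143 (fatty acid) and -0.069 (all). With this centring 0 genes of any group were at least 1.5-fold lower (5.14% of genes used). With a pseudocount of 5 the sterol path median was -0.298. At least 1.5-fold lower were then 1 sterol path gene, 0 sensing genes and 3 of all 31 genes, beside 4.59% of genes used. At least 1.5-fold lower were 0 sensing genes after median centring, quantile normalization or upper-quartile scaling (9.6%, 8.39% and 9.72% of genes used). With the limit at 0.32 on the log2 scale the counts were 11, 3, 5 and 19 for sterol path, sensing, fatty acid and all genes. At 2-fold they were 0 in each. Of genes used 23.6% were past the limit at 0.32 and 4.47% past 2-fold. Of the 10 other lipid lists 9 had a median below 0 as deposited, 4 after quantile normalization and 1 with epithelial centring. Among the lists that turned positive with this centring were LXR and efflux (0.099), other fatty acid synthesis (0.209) and glycerolipid genes (0.166). The medians of these named lists lay more than 0.1 below 0 as deposited. The other 105 of 133 main values kept within these limits, among them the motif counts over all 25 genes with the window extended by 50 bases. Centring shifts all genes alike, which accounts for its part in these values, and the cause of the others was not tested. The fewest fragments were behind Ebp and Tm7sf2, whose counting intervals overlap.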

Other observations

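Within families of related lipid genes the proportions of the members differed between the libraries to unequal degrees. Srebf1 stood 1.26-fold above Srebf2 in B6J and 1.34-fold above it in humanCD3eTg, and Fads2 stood 1.66-fold and 1.503-fold above Fads1, so these pairs kept nearly the same proportion while their levels differed. The pair of Fdps and Ebp, enzymes of early and late sterol steps and not of a shared family, went from 20.8-fold to 11.1-fold. Their log2 ratios differ by -0.86. Both levels are uncertain, since Ebp rests on about 116 and 106 fragments. For Fdps up to 77.3% of windows occur in another transcript. These are values of 2 libraries with no spread, and no explanation was tested.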
